A study of Homo sapiens with 3 samples.

Results

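The genes described here are 10 targets, receptors and regulators of Wnt signalling: SP5, AXIN2, NKD1, ASCL2, FZD2, LGR5, RNF43, ZNRF3, TCF7 and LEF1. They were chosen by symbol, with earlier results of these data known. All 10 were found among the 31907 rows of the deposited expression table. The cells were NCI-N87, a long-established line from a human gastric carcinoma. The scrambled library came from cells labelled wild type and given a scrambled siRNA, and 2 knockdown libraries came from cells given siRNA1 or siRNA2 against FOXP4, a forkhead transcription factor. All 3 libraries were transfected with Lipofectamine 2000. The labels give no time after transfection and do not say whether the cultures were separate. The p-values speak only to the spread between the siRNA1 and siRNA2 libraries. That spread holds any difference between the 2 siRNAs, and the rest of it may be technical.

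In canonical Wnt signalling, a secreted Wnt protein binds a Frizzled receptor and an LRP coreceptor at the cell surface. The complex that marks beta-catenin for destruction is then held back, and beta-catenin enters the nucleus and binds TCF/LEF proteins on DNA. In the gut, this pathway keeps stem cells of the epithelial glands dividing, and many of its target genes encode inhibitors that limit the signal.

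The value of 1 library is given in TPM, a read share corrected for gene length. Estimated reads were about 18000000 in the scrambled library, 18200000 with siRNA1 and 18800000 with siRNA2. They cover the 22217 of 31907 rows matched to an exon length, so full depth may be higher. FOXP4, the target, stood at 93.9 TPM after the scrambled siRNA, at 51.6 TPM after siRNA1 and at 36.7 TPM after siRNA2. Epithelial markers were present in all 3 libraries, with EPCAM between 813 and 1150 TPM, although CDH1, the gene of E-cadherin, stood at only 4.16 to 11.6 TPM. Of 8 gastric markers, 4 or 5 reached 1 TPM in each library, among them LYZ at 3325 to 4401 TPM and TFF1 at 57.4 to 136 TPM, while the mucin genes MUC5AC and MUC6 were at or near 0. Of 6 intestinal markers, 3 reached 1 TPM, CDH17 at 252 to 409 TPM, VIL1 at 122 to 136 TPM and CDX2 at 161, 54.6 and 19.0 TPM in the scrambled, siRNA1 and siRNA2 libraries, and CDX1, MUC2 and TFF3 stayed under 1 TPM. The intestinal markers summed to 647, 585 and 399 TPM in that order, and their part in the results below was not tested. Of 4 fibroblast markers, COL1A1 measured 13.1, 6.42 and 22.3 TPM and COL1A2, DCN and LUM were listed at 0, and the 4 immune markers summed to 3.66 to 4.75 TPM. Mitochondrially encoded mRNAs took 5.15% of TPM in the scrambled library, 8.05% with siRNA1 and 1.41% with siRNA2, and with these genes left out and TPM rescaled the log2 folds of SP5 described below were -1.54 and -3.74.

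SP5 encodes a zinc finger transcription factor that is switched on directly by beta-catenin in many tissues. The gene (ENSG00000204335.3, chromosome 2, 170715351 to 170718078, plus strand, GRCh38) measured 521 TPM in the scrambled library, 170 TPM with siRNA1 and 39.8 TPM with siRNA2. It was the highest of the 10 genes in the scrambled library and the fifth with siRNA2. SP5 stood at 32.7% of the scrambled level with siRNA1, with a 95% counting interval of 30.9% to 34.6%, and at 7.65% with siRNA2, with an interval of 6.87% to 8.50%. These exact intervals, like the others here, cover counting error only and rest on estimated reads, from 5033 in the scrambled library to 378 with siRNA2. Log2 folds are differences in log2(TPM + 1), which understates the change of low genes, and for SP5 they were -1.61 and -3.68. The siRNA2 fold was the ninth lowest of 14429 genes, those whose mean over the libraries reached 1 TPM, and the siRNA1 fold had rank 193 from the lowest.

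The stretch just before the SP5 start is shown because beta-catenin acts through TCF/LEF proteins, which bind CTTTG cores in DNA. Windows of 250 bases before RefSeq starts (GRCh38.p14) were read for the 4 members found in the table of promoters, SP5, TCF7, RNF43 and LEF1. TCF7 and RNF43 have 2 windows each, and the 3 windows printed are those that overlap no annotated exon. The capitals mark each CTTTG and its reverse complement CAAAG, so both strands were searched.
SP5, chr2:170715087-170715336, plus strand: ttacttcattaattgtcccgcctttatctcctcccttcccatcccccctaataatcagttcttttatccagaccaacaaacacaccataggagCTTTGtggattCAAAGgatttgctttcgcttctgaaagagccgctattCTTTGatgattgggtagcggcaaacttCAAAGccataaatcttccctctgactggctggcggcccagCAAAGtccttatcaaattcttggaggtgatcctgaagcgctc
TCF7, inner start, chr5:134123368-134123617, plus strand: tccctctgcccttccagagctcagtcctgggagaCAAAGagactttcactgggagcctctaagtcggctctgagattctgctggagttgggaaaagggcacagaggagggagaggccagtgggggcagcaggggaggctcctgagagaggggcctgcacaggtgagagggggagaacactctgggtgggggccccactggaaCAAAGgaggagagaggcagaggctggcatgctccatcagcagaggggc
RNF43, inner start, chr17:58402722-58402971, minus strand: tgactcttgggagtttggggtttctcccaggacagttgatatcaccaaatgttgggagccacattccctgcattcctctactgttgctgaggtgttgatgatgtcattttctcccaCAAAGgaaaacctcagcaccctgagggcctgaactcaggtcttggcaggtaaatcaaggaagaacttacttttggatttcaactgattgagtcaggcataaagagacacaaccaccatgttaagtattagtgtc

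The SP5 window held 5 CTTTG cores, 2 on the plus strand and 3 on the other, and 1 of them was part of the longer CTTTGAT. At least 5 cores occurred in 0.0854% of the 35116 windows in the table, at least 2 in 12.4% and at least 1 in 42.1%. The SP5 window held 45.6% GC, beside a median of 58% over all windows. These shares were not matched for GC content, so they do not tell how rare 5 cores are in windows like that of SP5. CTTTGAT occurred in 2.26% of windows, and each CTTTGAT also counts as a CTTTG core. The inner TCF7 window held 2 cores and the outer one 0, and both RNF43 windows and the LEF1 window held 1 each. All 250 bases of the LEF1 window (108166302 to 108166551) were annotated exon, inside the gene span given below. The outer TCF7 window (134115363 to 134115612) also lay inside its gene span. These windows thus do not lie before the outermost annotated start of either gene. The forkhead motif TGTTTAC, searched on both strands and found in 2.98% of all windows, had 1 match before the outer TCF7 start and none in the other 5 windows. These counts describe letters in a window, and the table of RNA levels holds no measurement of binding.

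AXIN2, a scaffold of the beta-catenin destruction complex and a feedback target of Wnt signalling, was lower with both siRNAs. Its levels were 239 TPM in the scrambled library, 155 TPM with siRNA1 and 68.6 TPM with siRNA2. The log2 folds were -0.62 and -1.79, which left 64.9% and 28.7% of the scrambled level. AXIN2 (ENSG00000168646.12, chromosome 17, 65528563 to 65561647, minus strand) shares 1316 exon bases with the gene model AC004805.1 on the same strand, and reads there cannot be told apart.

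NKD1, an inhibitor that binds Dishevelled and is itself a Wnt target, was split between the siRNAs. The gene (ENSG00000140807.6, chromosome 16, 50548330 to 50649249, plus strand) measured 79.9 TPM in the scrambled library, 122 TPM with siRNA1 and 69.9 TPM with siRNA2. The level with siRNA1 was the highest of the 3 and the other two lay close together. The log2 folds were 0.61 and -0.19, and with libraries rescaled by median of ratios the siRNA2 fold was 0.08.

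ASCL2, a transcription factor of intestinal stem cells, was near the lower limit of measurement. The gene (ENSG00000183734.4, chromosome 11, 2268495 to 2270952, minus strand) measured 2.87 TPM in the scrambled library, 0.36 TPM with siRNA1 and 0.70 TPM with siRNA2. These values rested on about 25, 3 and 6 reads. The siRNA1 level was 12.4% of the scrambled one with a counting interval of 2.40% to 40.7%, and the siRNA2 level 24.5% with an interval of 8.20% to 61.1%. Both knockdown libraries were thus below the scrambled library by more than counting error, and their own TPM intervals, 0.074 to 1.04 and 0.26 to 1.53, overlapped.

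**Figure D1:**
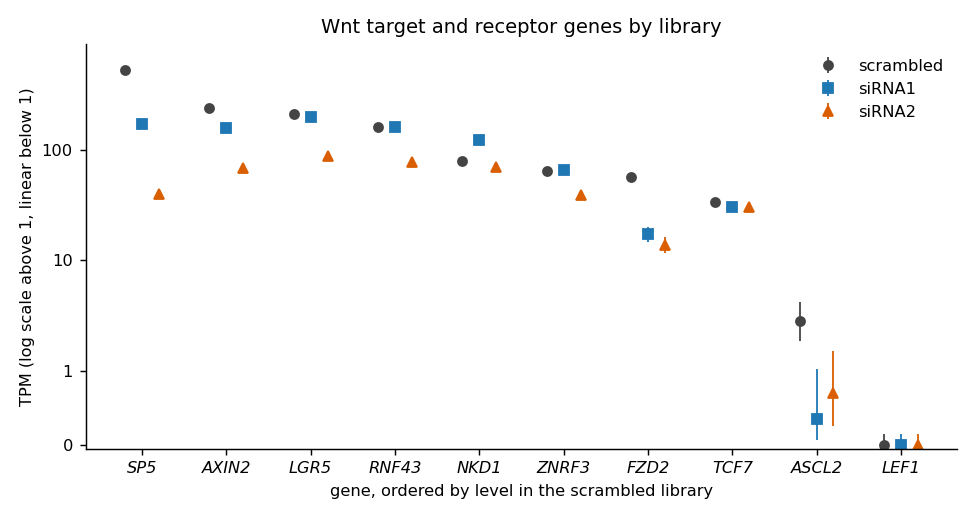
TPM of the 10 Wnt genes in the scrambled (circles), siRNA1 (squares) and siRNA2 (triangles) libraries, on an axis that is logarithmic above 1 TPM and linear below it. Bars are 95% Poisson counting intervals from estimated reads, not replicate error. SP5 goes from 521 to 39.8 TPM with siRNA2, TCF7 stays between 30.3 and 33.4 TPM, and LEF1 is at 0 in all 3 libraries.

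FZD2, a Frizzled receptor for Wnt proteins, was lower by a similar amount with both siRNAs. The single-exon gene (ENSG00000180340.6, chromosome 17, 44557459 to 44559570, plus strand) measured 56.1 TPM in the scrambled library, 17.4 TPM with siRNA1 and 13.9 TPM with siRNA2. The counting intervals of the knockdown levels overlapped, at 14.8 to 20.2 TPM and 11.6 to 16.4 TPM, and both lay far below the scrambled interval of 51.5 to 61.0 TPM. The log2 folds were -1.64 and -1.94, a mean of -1.79 ± 0.21 (SD, n = 2).

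LGR5 encodes the R-spondin receptor that marks stem cells of the gut epithelium. The gene (ENSG00000139292.12, chromosome 12, 71439770 to 71586310, plus strand) measured 212 TPM in the scrambled library, 198 TPM with siRNA1 and 87.3 TPM with siRNA2. Only the siRNA2 library was far from the scrambled one, at 41.2% of its level against 93.6% with siRNA1. The log2 folds were -0.09 and -1.27.

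RNF43 and ZNRF3 are membrane E3 ubiquitin ligases that remove Frizzled receptors from the cell surface and are in turn cleared by R-spondin bound to LGR receptors. RNF43 (ENSG00000108375.12, chromosome 17, 58352500 to 58417595, minus strand) measured 159 TPM in the scrambled library, 162 TPM with siRNA1 and 77.5 TPM with siRNA2. ZNRF3 (ENSG00000183579.15, chromosome 22, 28883592 to 29057487, plus strand) measured 64.1, 65.5 and 39.3 TPM in the same order. For both genes the scrambled and siRNA1 counting intervals overlapped and the siRNA2 interval lay below them. The log2 folds were 0.02 and -1.03 for RNF43 and 0.03 and -0.69 for ZNRF3. RNF43 shares 4326 exon bases with the gene model AC004687.2 on the same strand and 1521 with the antisense gene TSPOAP1-AS1, so its level is less certain. LGR5, TCF7 and NKD1 share 208, 210 and 67 exon bases with genes on the opposite strand.

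TCF7 and LEF1 encode DNA-binding partners of beta-catenin. TCF7 (ENSG00000081059.19, chromosome 5, 134114711 to 134151865, plus strand) measured 33.4 TPM in the scrambled library, 30.5 TPM with siRNA1 and 30.3 TPM with siRNA2, with log2 folds of -0.13 and -0.14. It was the member nearest to its scrambled level with siRNA2, and with rescaling by median of ratios that fold was 0.13. LEF1 (ENSG00000138795.9, chromosome 4, 108047545 to 108168956, minus strand) was listed at 0 in all 3 libraries. A count of 0 allows up to 3 reads, which for LEF1 is 0.119 TPM in the scrambled library, 0.123 TPM with siRNA1 and 0.121 TPM with siRNA2.

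The order of the levels differed between libraries. In the scrambled library it ran SP5, AXIN2, LGR5, RNF43, NKD1, ZNRF3, FZD2, TCF7 and ASCL2, and no neighbours in it had overlapping counting intervals. With siRNA2 it ran LGR5, RNF43, NKD1, AXIN2, SP5, ZNRF3, TCF7, FZD2 and ASCL2, where NKD1 and AXIN2 overlapped, as did SP5 and ZNRF3. The summed level of the 10 genes was 1367 TPM in the scrambled library, 922 TPM with siRNA1 and 427 TPM with siRNA2. SP5 made up most of the siRNA1 difference in that sum, and without SP5 the sums were 846, 751 and 387 TPM.

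Of the 10 genes, 9 passed the 1 TPM filter, all except LEF1. At least 2-fold lower with both siRNAs were 3 of the 9, SP5, FZD2 and ASCL2, where 2.38% of all 14429 genes were. With siRNA1 alone the same 3 met the 2-fold limit, against 6% of all genes. With siRNA2 alone 6 met it, the 3 with AXIN2, LGR5 and RNF43, against 13.2%. No member was 2-fold higher with siRNA1, where 5.27% of all genes were, or with siRNA2, where 6.88% were. All 9 were below the scrambled library with siRNA2, as were 65% of all genes, and 6 were below it with both siRNAs, as were 38.1%. With libraries rescaled by median of ratios, which moved the median siRNA2 fold of all genes by 0.25, 7 of the 9 were below the scrambled library with siRNA2, as were 49.5% of all genes. LGR5 and RNF43 then missed the 2-fold limit, at -0.99 and -0.75, so 4 met it, against 8.05%. With a pseudocount of 5 in place of 1, RNF43 at -0.99 and ASCL2 at -0.47 missed it, so 4 met it, against 5.63%, and 2 members, SP5 and FZD2, met it with both siRNAs. Without rescaling, the other 3, NKD1, RNF43 and ZNRF3, were above it with siRNA1 and below it with siRNA2, as were 26.9%. The median log2 fold of the 9 was -0.13 with siRNA1 and -1.19 with siRNA2, beside 0.03 and -0.24 over all genes tested. Both sets of folds share the single scrambled library. The members were chosen with earlier results of these data known, so the shares of all genes are not a neutral comparison.

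**Figure D2:**
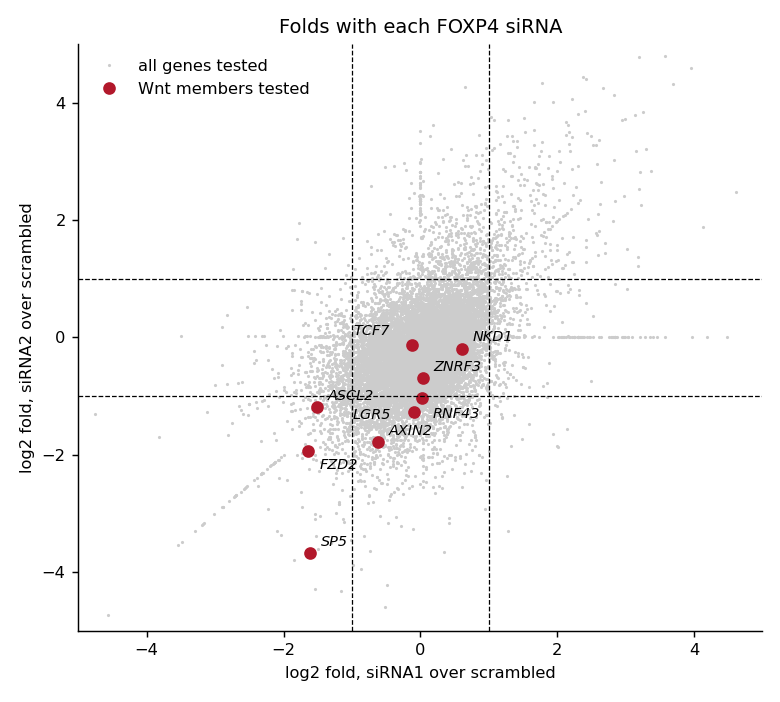
Log2 fold over the scrambled library with siRNA1 (horizontal) and siRNA2 (vertical) for all 14429 genes tested (grey) and the 9 Wnt genes tested (red), with dashed lines at a 2-fold change and 9 genes outside the axes. SP5, FZD2 and ASCL2 lie in the lower left corner, and LGR5, RNF43 and AXIN2 lie under the lower line alone.

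The group comparison of 2 knockdown libraries with 1 scrambled library used limma, with 1 residual degree of freedom. It called 0 of the 9 genes at an adjusted p under 0.05, and 0 of all 14429 genes (0%). Unadjusted limma p-values were under 0.05 for SP5, at 0.0290, and FZD2, at 0.0151, and for 428 of all genes, which is 2.97%. The mean log2 fold of SP5 was -2.64 ± 1.46 (SD, n = 2) with a limma standard error of 0.89 and an adjusted p of 0.9999. The 2 siRNAs differed more for SP5 than for any other member, by -2.07 on the log2 scale for siRNA2 minus siRNA1. With genes whose mean reached 10 TPM, limma called SP5 (adjusted p = 0.00066) and none of the other 7 members that passed, where 1.02% of 9129 genes were called. With protein-coding genes alone it called SP5 too (adjusted p = 0.00044), where 0.847% of 10864 genes were called. In both fits all genes shared 1 variance trend and the spread of a gene's own values did not enter. At 10 TPM, FZD2 had an adjusted p of 0.252 and AXIN2 of 0.798.

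SP5, FZD2 and ASCL2 also had the highest GC content of the members. Their longest transcripts held 66.2%, 64.9% and 69.2% GC, and the other 6 members tested held 43.8% to 54.9%, beside a median of 48.2% over 12323 genes. Across those genes, which are not independent replicates, the siRNA1 fold had a Spearman correlation of -0.61 with GC content and the siRNA2 fold one of -0.10. The trend was removed with a lowess curve, fitted to genes not encoded in mitochondria whose mean reached 10 TPM and applied to all. With it removed, 0 of the 9 members were 2-fold lower with both siRNAs, where 1.02% of genes were. The siRNA1 folds were then -0.73 for SP5, -0.82 for FZD2 and -0.48 for ASCL2. The siRNA2 folds were -3.57, -1.84 and -1.07, and those of AXIN2 and LGR5 were -1.74 and -1.31. ASCL2 lay under the level of the genes that set the curve, and its folds were already understated, so its corrected values are uncertain. RNF43 lay just past the 2-fold limit, so the 6 members that were 2-fold lower with siRNA2 remained so, against 12.1% of genes. FOXP4, with 62.9% GC, had folds of -0.14 and -1.25 after the same step, in place of -0.85 and -1.33.

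**Figure D3:**
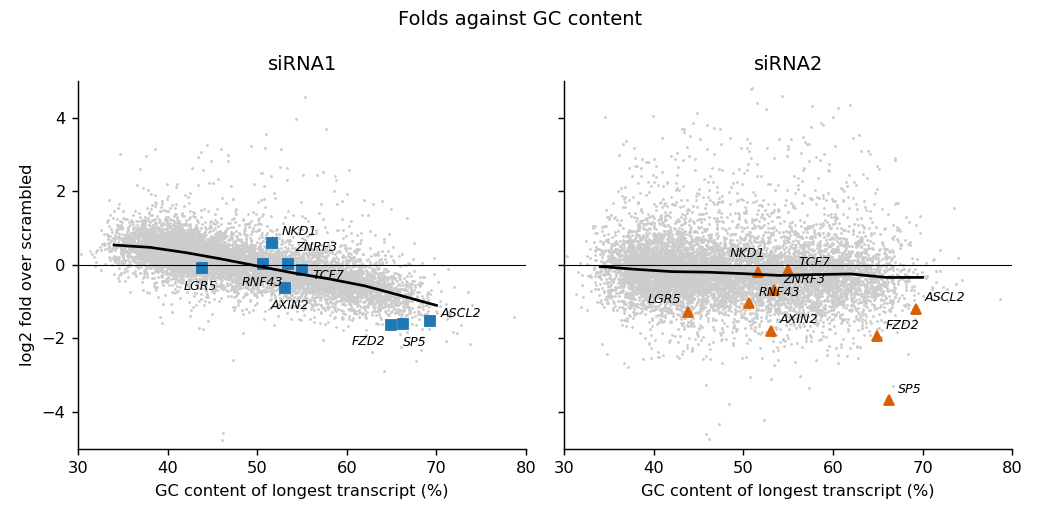
Log2 fold over the scrambled library against GC content of the longest transcript, for siRNA1 (left) and siRNA2 (right), with genes of at least 10 TPM in grey, their median over bins of GC content as a line, and the 9 Wnt genes tested as symbols. With siRNA1 the line slopes down and SP5, FZD2 and ASCL2 lie near its low end, while with siRNA2 the line is nearly flat and SP5 lies at -3.68.

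Set against each other, siRNA2 gave the lower level in 8 of the 9 members, and ASCL2 was the exception. Among all genes 64.3% were lower with siRNA2 than with siRNA1. The differences were -2.07 for SP5, -1.17 for AXIN2, -1.17 for LGR5, -1.05 for RNF43, -0.80 for NKD1 and -0.72 for ZNRF3. FZD2 differed by -0.30 and TCF7 by -0.008, which is nearly equal, beside a median of -0.25 over all genes. With rescaling by median of ratios, the siRNA1 and siRNA2 folds were -0.14 and 0.13 for TCF7. Those of FZD2 were then -1.65 and -1.67. With 1 library per siRNA these differences have no replicate check. In bulk RNA, fewer cells that express a gene and less RNA per cell cannot be told apart.

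The rest of the pathway lay on both sides of the scrambled library, in shares near those of all genes. The counts, levels and folds of these genes were not corrected for the GC trend except where stated, and siRNA1 folds followed GC content. Of 115 other Wnt pathway genes listed, 73 passed the filter, and limma called 0 of them. At least 2-fold lower with both siRNAs were 2 (2.74%), WNT6 and FGF18, beside 2.38% of all genes, and 1 (1.37%) was at least 2-fold higher, TNKS2, beside 2.52%. Over the 73, 26 (35.6%) were below the scrambled library with both siRNAs, beside 38.1% of all genes, 23 (31.5%) above, beside 24.5%, and 24 split, and the medians were 0.02 with siRNA1 and -0.08 with siRNA2.

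Wnt ligand genes were mostly low, and 5 of 19 passed the filter. WNT5B, a ligand best known outside the beta-catenin branch, measured 19.6, 11.7 and 10.5 TPM in the scrambled, siRNA1 and siRNA2 libraries. WNT6 measured 7.61, 2.71 and 3.17 TPM, on about 61, 21 and 25 reads, and WNT3 measured 6.72, 5.77 and 6.47 TPM. WLS, which carries Wnt proteins to the cell surface, measured 211, 164 and 177 TPM, and TMED2, a cargo receptor of early secretion, 312, 374 and 267 TPM. WNT6 is GC-rich at 70.5%, and its siRNA1 fold was -0.12 with the GC trend removed in place of -1.22. Its mean of 4.49 TPM lay under the 10 TPM of the genes that set the GC curve, so that corrected fold is uncertain.

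Among 10 other Frizzled receptors and coreceptors that passed, 0 were 2-fold lower or higher with either siRNA. LRP5, the coreceptor, measured 297, 196 and 322 TPM, and PTK7, a receptor of the planar cell polarity branch, 173, 123 and 142 TPM. FZD7 measured 72.4, 43.3 and 45.6 TPM and FZD6 70.4, 105 and 111 TPM, so FZD2 was the 1 Frizzled gene tested with a 2-fold difference, a comparison made after the values were seen. LGR4, the broadly expressed relative of LGR5, measured 131, 91.0 and 51.7 TPM, with log2 folds of -0.52 and -1.32. It was the 1 gene of its list that passed, since LGR6 and the R-spondin genes did not.

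**Figure D4:**
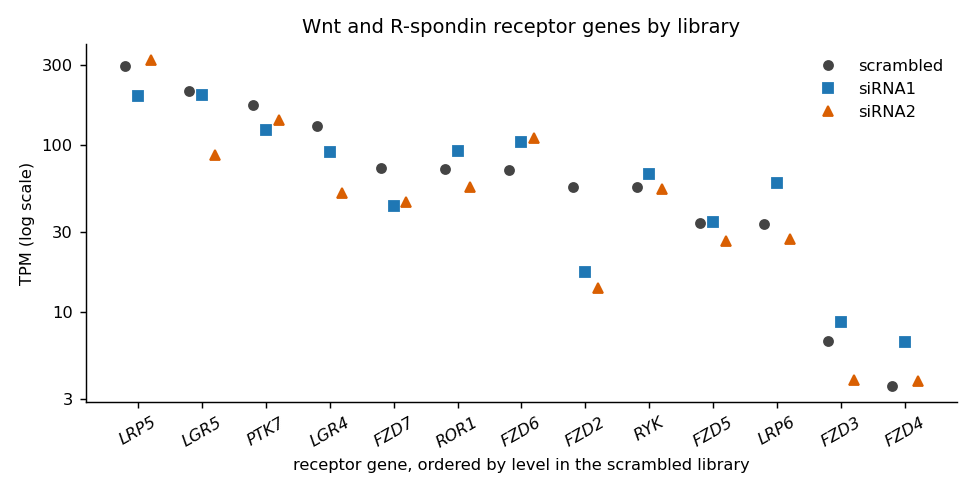
TPM on a log axis of the Wnt and R-spondin receptor genes that passed the filter, in the scrambled (circles), siRNA1 (squares) and siRNA2 (triangles) libraries. FZD2 has both knockdown values well under the scrambled one, LGR5 and LGR4 are lowest with siRNA2, and FZD6 is higher with both.

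Secreted and surface inhibitors, of which 5 passed, were led by DKK1, which blocks the LRP coreceptors. DKK1 measured 531, 269 and 605 TPM, and only the siRNA1 value was low. KREMEN1, a receptor for DKK proteins, measured 52.8, 53.6 and 43.1 TPM. No gene of this list met the 2-fold limit with both siRNAs. NOTUM, an enzyme that inactivates Wnt proteins and a Wnt target itself, was named after its values were seen and measured 18.3, 9.74 and 8.79 TPM. NOTUM is GC-rich at 66.5%. With the GC trend removed, its siRNA1 fold was 0.05 in place of -0.84 and its siRNA2 fold -0.88 in place of -0.98.

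In the cytoplasm, TNKS2, a tankyrase that marks axin proteins for breakdown, was above the scrambled level with both siRNAs. It measured 86.1, 213 and 195 TPM, with log2 folds of 1.30 and 1.17, and of 1.06 and 1.11 with the GC trend removed. CSNK1A1, the kinase that primes beta-catenin for destruction, measured 122, 132 and 244 TPM. Of the 17 genes of this list that passed, 4 were below the scrambled library with both siRNAs, 7 above and 6 split.

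CTNNB1, the gene of beta-catenin, measured 421 TPM in the scrambled library, 469 TPM with siRNA1 and 521 TPM with siRNA2. The corepressor TLE5, listed under its older symbol AES, measured 144, 97.4 and 141 TPM. Of 14 nuclear partners that passed, 0 met the 2-fold limit with both siRNAs and 6 were lower, 6 higher and 2 split. With siRNA2 alone 3 were 2-fold higher and 1 was 2-fold lower. TCF7L2, the TCF family member that is also expressed here, was named after its values were seen and measured 35.8, 49.0 and 70.1 TPM.

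Other target genes of the pathway also lay on both sides. Of 17 that passed, 6 (35.3%) were below the scrambled library with both siRNAs, 7 (41.2%) above and 4 split, with medians of 0.02 and -0.25, beside 38.1% and 24.5% of all genes below and above. The 6 were ID2, FGF18, EPHB3, MYC, EPHB2 and BMP4. ID2, an inhibitor of bHLH transcription factors named after its values were seen, measured 160, 85.6 and 30.8 TPM, and its log2 folds of -0.89 and -2.33 lay between those of AXIN2 and SP5. CCND1, the gene of cyclin D1, measured 541, 642 and 633 TPM, and SOX9, a progenitor factor, 585, 1074 and 839 TPM. FGF18, a growth factor gene, measured 10.6, 1.22 and 4.02 TPM on about 99, 11 and 37 reads. The SP factors are the protein family of SP5, and 5 of 8 others passed with medians of 0.26 and -0.04. SP1 measured 60.4, 79.1 and 58.7 TPM and SP3 54.3, 71.7 and 58.1 TPM.

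**Figure D5:**
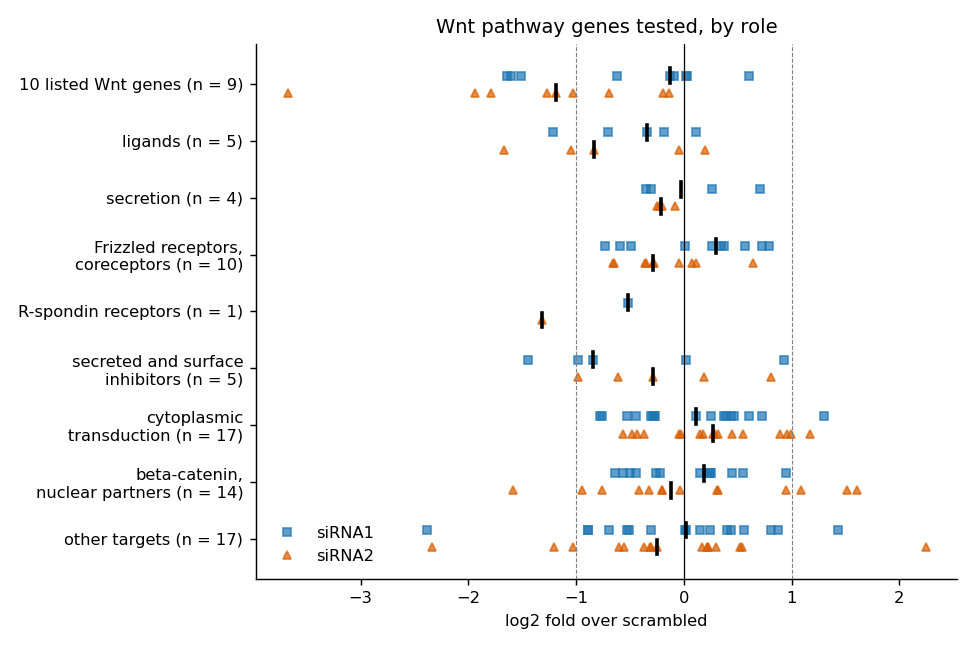
Log2 fold over the scrambled library with siRNA1 (squares) and siRNA2 (triangles) for the Wnt pathway genes that passed the filter, by role, with black bars at the medians and dashed lines at a 2-fold change. The listed Wnt genes have a median of -1.19 with siRNA2, and the medians of the other target genes are 0.02 and -0.25.

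The genes whose pair of folds lay nearest to that of SP5 or FZD2 were sought among 9121 other genes with a mean over 10 TPM, by Euclidean distance over the 2 folds. Nearest to SP5 were KIF20A, a mitotic kinesin, at a distance of 0.26, then MIR130B, RP11-141J13.5, and the transcription factors SOX2 and CDX2, at 0.66. MIR130B is a short microRNA gene at 36.3, 8.03 and 2.63 TPM, which for its length rests on few reads, so its folds are uncertain. RP11-141J13.5 matched no gene model, so its reads were not estimated. Nearest to FZD2 were GATA5, at 0.04, then HSPA1B, MCM5, FRAT2 and POLD1, at 0.22. FRAT2, which binds the kinase GSK3 and favours beta-catenin, measured 81.2, 28.9 and 21.6 TPM. HSPA1B has a near-identical copy, HSPA1A, so its level is uncertain. The 5 genes nearest to FZD2 held 57.0% to 65.0% GC, beside 64.9% for FZD2 and a median of 48.2% over 12323 genes. Those nearest to SP5 with a known GC content held 48.4% to 57.3%, beside 66.2% for SP5. The folds used were not corrected for the GC trend, and its part in these distances was not tested. These distances rest on 3 libraries and on folds that share 1 control.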

How the data were processed

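Poly(A) RNA of 3 libraries was made into libraries, per the labels' protocols. The authors deposited 1 table of TPM, 1 column per library, on GRCh38 per the submitters' processing notes. The quantification tool, the annotation and whether counting used strand are not given in the sources used here. The libraries summed to 998273 to 998717 TPM, and on such a scale a rise in some transcripts lowers the rest.

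Reads were estimated from TPM times GENCODE 29 exon length, which stepped in whole reads. Of low values, 92.6%, 92.5% and 92.8% lay within 0.1 of a whole number. Values were compared as log2(TPM + 1) with limma 3.58.1 in R 4.3.3 (intensity trend, Benjamini-Hochberg over all 14429 genes whose mean reached 1 TPM, threshold 0.05). The single control was taken to vary as the siRNA libraries did. GC content was matched for 85.4% of genes tested. Scripts were tested on simulated data.

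The members and lists were chosen with earlier results of these data known. Named genes were the members, list genes 2-fold changed with both siRNAs, the 2 highest of each list, and the 5 nearest to SP5 and to FZD2. Alternatives were other pseudocounts, filters, scalings and gene sets, and leaving out each siRNA.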

Additional observations from a re-analysis of the deposited data

How the results depend on the processing

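Limma called 93 genes where the mean had to reach 10 TPM, 92 among protein-coding genes and 11 with mitochondrially encoded genes left out, in place of 0. With the first and second of these it called 1 of the Wnt genes, SP5 (adjusted p = 0.00066 and 0.00044). The count of genes 2-fold lower with both siRNAs was 521 with a pseudocount of 0.1, 121 with 5, 143 at 10 TPM and 583 without a filter, in place of 343. It was 242 with rescaling by median of ratios, 351 with mitochondrially encoded genes left out, 126 with the GC trend removed and 177 among protein-coding genes. The count of higher genes was 507 with a pseudocount of 0.1, 158 with 5, 204 at 10 TPM and 376 without a filter, in place of 363. It was 395 with rescaling by median of ratios, 389 with mitochondrially encoded genes left out, 275 with the GC trend removed and 211 among protein-coding genes. Leaving out siRNA1 or siRNA2, which gives values with no test, gave 866 to 1902 lower genes, 760 to 993 higher genes and 3 to 6 lower Wnt genes. With the GC trend removed, 0 of the Wnt genes were 2-fold lower with both siRNAs, in place of 3. Their median mean fold, -0.68, ranged from -0.13 without siRNA2 to -1.19 without siRNA1. Of 45 mean folds of single members under the scalings, pseudocounts and removal of the GC trend, 37 moved by less than the SD between siRNAs and 8 by more, and the filters and gene types left these folds as they were. That SD is each gene's own, from 1.46 for SP5 to 0.006 for TCF7. The counts thus depend on how far the siRNAs differ and do not measure robustness to processing. The mean fold of TCF7 went from -0.13 to 0.05 with the GC trend removed. Without siRNA1 that of NKD1 went from 0.21 to -0.19, and without siRNA2 those of RNF43 and ZNRF3 went from -0.50 and -0.33 to 0.02 and 0.03. Rescaling by median of ratios moved the median siRNA2 fold of all genes by 0.25. No paired analysis was possible because the scrambled group has 1 library.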

Other observations

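Some pathway genes below the filter or outside the naming rule, named here after their values were seen, had values of interest. SP8, a relative of SP5, measured 1.26 TPM in the scrambled library and 0.35 TPM with siRNA1 and was listed at 0 with siRNA2, on about 22, 6 and 0 reads. PYGO2, a nuclear partner of beta-catenin, measured 118, 86.6 and 38.8 TPM. CLDN1, a tight junction gene, went the other way at 89.8, 158 and 429 TPM, and the coactivator EP300 measured 13.1, 26.1 and 41.8 TPM. Limma over all genes tested called 0 of 14429, so the lack of a call for PYGO2, CLDN1 and EP300 says nothing particular about them.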
